A study of Mus musculus with 48 samples.

Results

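Coagulation and complement genes were followed in mouse liver through the first days after hepatocytes acquired an activated β-catenin, a MYC transgene, or both. The set held 39 genes, taken by their GENCODE mouse symbols: 7 vitamin K-dependent factors, 6 other coagulation factors and cofactors, the 3 fibrinogen chains, 3 genes of fibrinolysis, 4 protease inhibitors and carriers, 9 genes of complement activation, 2 of complement control and 5 of the terminal complement pathway. Of these, 38 had a row among the 20622 genes of the RNA tables and among the 16269 genes of the ribosome profiling tables. Of *F9*, which encodes coagulation factor IX, only the promoter was read, and its expression was not analysed here. Each of the 38 was detected in all 24 ribosome profiling libraries and passed the filter on low counts in all 24 comparisons (11 of ribosome-protected fragments, 7 of RNA and 6 of translation efficiency).

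The livers came from male mice of 4 genotypes, killed 4 or 10 days after tail vein injection of AAV8.TBG.Cre, a viral vector whose TBG promoter confines Cre to hepatocytes. B mice carried 1 allele of *Ctnnb1* whose exon 3 is lost on recombination (Ctnnb1ex3/+), which leaves a stabilised β-catenin. M mice carried R26-LSL-MYC, a MYC transgene at the Rosa26 locus that Cre switches on, and BM mice carried both alleles. WT mice had neither allele but were given the same virus, so every group holds the effect of the vector and of Cre. The mice were 2 to 4 months old, weighed at least 20 g and were on a mixed C57BL/6 background. Recombination is limited to hepatocytes, while the other cells of the liver keep their alleles, and whole liver was lysed. Each group had 3 mice, and each mouse gave 1 library of ribosome-protected fragments (RPFs, the stretches of mRNA covered by translating ribosomes) and 1 of cytoplasmic RNA.

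The liver makes most of the plasma proteins of both cascades. In coagulation, proteases circulate as inactive precursors and cut one another in turn until thrombin, the active form of *F2*, converts fibrinogen to fibrin, which plasmin later dissolves. Several of these factors bind membranes only after a vitamin K-dependent carboxylation, and serpins hold the proteases in check. Complement is a parallel protease cascade of innate immunity: C1, the mannose-binding lectins and factor B lead to cleavage of C3, and the terminal components C5 to C9 assemble into a membrane pore. Fibrinogen and several complement components are acute-phase proteins, whose genes respond to IL-6 through STAT3 and C/EBP factors, and HNF4 maintains many liver plasma protein genes.

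RPF libraries held 9742197 to 14380713 counts and RNA libraries 3254141 to 6540116, with the lowest RNA depths, 3254141 to 4060257, in BM at day 10. Values are given as CPM (counts scaled to a common library size) scaled by TMM factors, which rest on a weighted trimmed mean of the genes' log ratios. A fold change is therefore relative to that mean. With scaling to the library total, tried after the data were seen, the median of all genes moved up by 0.11 to 0.42 (log2) in RPFs and 0.19 to 0.55 in RNA in the comparisons with WT, and by -0.14 to 0.06 in translation efficiency, and members whose direction then flipped are named beside their values. A gene is called when its adjusted p was under 0.1 (quasi-likelihood test of edgeR, Benjamini-Hochberg over all genes tested). Errors of fold changes are SE, with n = 3 mice per group, or 2 in a group from which 1 mouse is left out. BM mouse 1 of day 10 stood apart: its RPF library lay at a root mean square log2 distance of 0.648 from the other 2 mice of its group, against 0.418 for the next library, and many of the day 10 results of BM are therefore also given without it.

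Promoter sequences are shown for the fibrinogen chains, which form one gene cluster and moved together, and for *C9*, *C8a* and *Pros1*, whose changes in BM at day 10 were among the largest. Each run is the 250 bases before the RefSeq gene start on the gene's own strand, 5′ to 3′, in build GRCm38.p6, at chr3:83025903-83026152 (+) for *Fga*, chr3:83049864-83050113 (-) for *Fgb*, chr3:83007474-83007723 (+) for *Fgg*, chr15:6445096-6445345 (+) for *C9*, chr4:104876399-104876648 (-) for *C8a* and chr16:62854057-62854306 (+) for *Pros1*. Capitals mark a match on either strand to one of the motif letters searched.

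Fga: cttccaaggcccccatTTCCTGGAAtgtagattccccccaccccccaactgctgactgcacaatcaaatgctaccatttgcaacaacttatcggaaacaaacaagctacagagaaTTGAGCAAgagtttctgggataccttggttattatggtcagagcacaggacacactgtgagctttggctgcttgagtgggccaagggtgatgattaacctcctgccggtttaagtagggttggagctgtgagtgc
Fgb: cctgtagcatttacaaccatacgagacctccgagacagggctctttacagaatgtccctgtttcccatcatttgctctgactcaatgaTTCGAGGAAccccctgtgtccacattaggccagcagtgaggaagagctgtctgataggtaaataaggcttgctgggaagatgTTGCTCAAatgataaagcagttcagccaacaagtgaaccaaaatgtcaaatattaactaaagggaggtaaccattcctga
Fgg: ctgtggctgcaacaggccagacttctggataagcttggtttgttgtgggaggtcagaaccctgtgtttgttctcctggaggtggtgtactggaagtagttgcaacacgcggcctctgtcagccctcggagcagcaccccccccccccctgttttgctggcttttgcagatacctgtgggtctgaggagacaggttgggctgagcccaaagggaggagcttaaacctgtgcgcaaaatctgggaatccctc
C9: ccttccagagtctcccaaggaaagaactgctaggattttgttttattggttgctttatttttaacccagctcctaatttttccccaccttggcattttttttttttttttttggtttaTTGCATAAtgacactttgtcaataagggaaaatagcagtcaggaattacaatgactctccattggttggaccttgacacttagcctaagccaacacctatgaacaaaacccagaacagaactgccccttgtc
C8a: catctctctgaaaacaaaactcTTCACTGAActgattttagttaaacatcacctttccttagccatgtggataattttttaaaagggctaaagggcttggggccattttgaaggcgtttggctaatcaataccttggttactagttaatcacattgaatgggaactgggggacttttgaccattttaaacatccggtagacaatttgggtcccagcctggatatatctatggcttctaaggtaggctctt
Pros1: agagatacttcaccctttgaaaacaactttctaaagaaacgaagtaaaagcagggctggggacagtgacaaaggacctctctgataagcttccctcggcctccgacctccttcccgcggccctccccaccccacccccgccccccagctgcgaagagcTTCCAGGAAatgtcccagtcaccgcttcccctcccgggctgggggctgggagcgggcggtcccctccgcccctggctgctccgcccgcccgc

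The 5 motifs were searched on both strands of these windows, and 31 of the 39 symbols had an entry. The C/EBP letters TTGCNNAA stood in 9 of 31 member promoters (29.0%) and, of all 27025 genes with an entry, in 10.8% (9.56% of their 32851 promoters, all of the same length). The STAT letters TTCNNNGAA were found in 6 members (19.4%) against 8.13% of all genes. *Fga*, *Fgb* and *F9* held both of these, and the last counts among the 9 and the 6. The C/EBP letters ended 128 bases before the start of *Fga* and 73 before that of *Fgb*, and the STAT letters ended 226 and 154 bases before it. *Fgg* held neither in this window. *C9* held the C/EBP letters, and *Pros1* and *C8a* the STAT letters. The TCF/LEF letters CTTTGAT were found in 1 member, *Serpind1* (3.72% of all genes), while the MYC E-box CACGTG (6.86%) and the HNF4 letters CAAAGTCCA (0.451%) were found in none. No pair of these motifs shares a base in the printed sequences. A match describes the letters and was not tested as a binding site.

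In WT liver the members spanned a wide range of ribosome occupancy per length. At day 4 *Fga* had an RPF level of 8942 ± 1200 CPM per counted kilobase (SD, n = 3), *Fgg* 8840 ± 1027, *Fgb* 6599 ± 768 and *Ahsg*, which encodes the carrier protein fetuin-A, 6116 ± 313. *Fga* and *Fgg* did not differ beyond their spread. At the other end stood *Pros1*, the gene of protein S, with 96.3 ± 4.65, *C1ra* with 106 ± 6.67 and *F11* with 119 ± 5.58. The levels of 3 genes rest on short transcripts that carried less of the gene's RNA than the other isoform: after the ends of the coding sequence were left out, the counted transcript of *Serpinc1* held 63 codons, that of *C8g* 139 and that of *Masp2* 156. They carried 18 to 21.8% (*Serpinc1*), 38.1 to 44.4% (*C8g*) and 17.9 to 34.5% (*Masp2*) of that gene's RNA.

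The 38 genes took 7.65 to 8.69% of all RPF counts in WT mice of day 4 and 4.94 to 6.01% in BM mice. M lay between them at 6.36 to 6.57%, and B, at 5.65 to 6.54%, overlapped both M and BM. At day 10 the share was 6.51 to 8.16% in WT, 5.59 to 6.65% in B and 6.17 to 6.56% in M. BM mice 2 and 3 then had 4.25 and 4.21%, below every other mouse of either day, while mouse 1 had 6.16%, within the range of B. The 3 fibrinogen chains alone took 2.48 to 3.21% in WT at day 4 and 1.09 to 1.33% in BM, and 1.04 to 1.43% in BM at day 10.

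**Figure D1:**
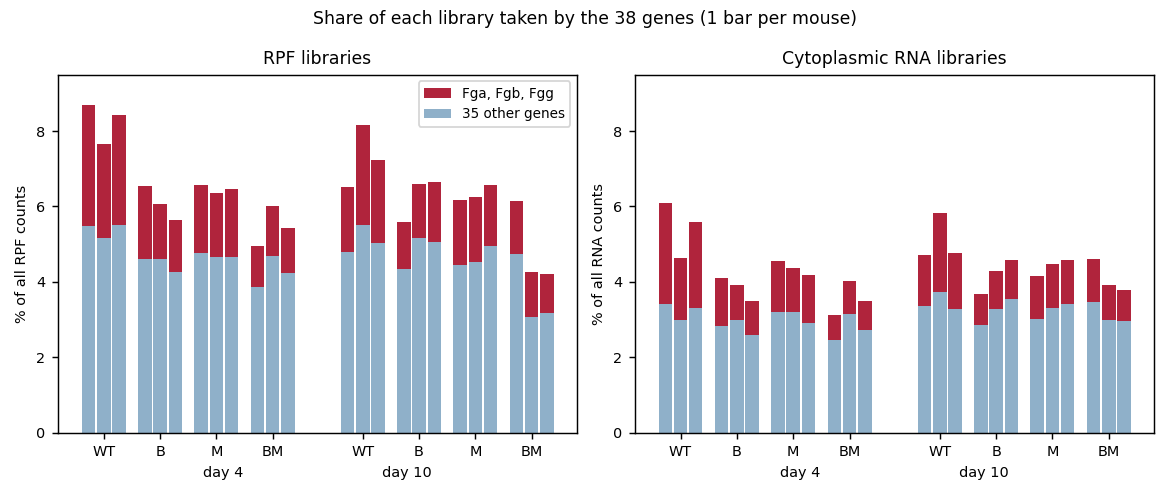
Share of all counts (%, y axis) taken by the 38 genes, with 1 bar per mouse, by genotype and day (x axis), in RPF libraries (left) and cytoplasmic RNA libraries (right). Red marks *Fga*, *Fgb* and *Fgg*, and blue the 35 other genes; the 3 WT mice of day 4 stand at 7.65 to 8.69% of RPF counts and the 3 BM mice at 4.94 to 6.01%.

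The comparison of BM with WT asked how both alleles together had changed these genes by day 4. In BM liver 34 of 38 genes fell in RPFs and none rose. Over all genes tested, 24.7% fell and 26.2% rose. The members' median was -0.78 (log2), and that of all genes was close to 0, near which the TMM factors place it. In RNA 34 fell and 1 rose, *F5* (0.38 ± 0.12, adjusted p = 0.0211), with a median of -0.76, where 20.6% of all genes fell and 21.3% rose. With scaling to the library total 28 fell and 4 rose in RPFs, beside 990 and 6769 of all 11375 genes. In RNA 20 fell and 5 rose, beside 614 and 7535 of all 11211. The members' medians were then -0.35 in RPFs and -0.21 in RNA, and those of all genes 0.42 and 0.54. Of the genes called lower above, *C1ra* and *Masp2* then changed direction in RPFs and *C1ra*, *C3*, *C8g*, *Klkb1*, *Masp1*, *Masp2* and *Proc* in RNA. The 4 genes without an RPF call were *Pros1* (0.15 ± 0.09), *F5* (0.19 ± 0.11), *F13b* (0.03 ± 0.10) and *Mbl2* (-0.10 ± 0.09, which flips with that scaling).

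By day 10, 31 genes fell in RPFs of BM liver and 2 rose, *Pros1* and *F5*, where 22.3% of all genes fell and 24.5% rose. The median was -1.12. In RNA 33 fell and 3 rose, with a median of -1.10 (22.8% and 22.9% of all genes). Scaled to the library total, 26 fell and 3 rose in RPFs (median -0.73), beside 1233 and 4913 of all 11346 genes. In RNA 26 fell and 4 rose (median -0.70), beside 1263 and 5292 of all 11125. With TMM factors and without BM mouse 1, the RPF count was 32 lower and 3 higher, with a median of -1.32 and backgrounds of 32.9% and 33.4%. The RNA count was 33 lower and 3 higher, with a median of -1.24 (29.2% and 27.9%). All 33 members called in RPFs with the 3 BM mice kept their call and direction without mouse 1, and *F13b* (0.32) and *Masp2* (-0.26) were called in addition. Values without it are given with some of the members below. For the others they were -2.39 for *Serping1*, -2.44 for *C8a*, -3.03 for *C8b*, -1.51 for *C6*, -1.68 for *F11*, -1.96 for *Klkb1*, -2.03 for *Mbl1*, -1.76 for *Mbl2*, -1.08 for *Cfi* and -1.08 for *C1ra*. In the coagulation and fibrinolysis genes they were -1.11 for *Fgb*, -1.32 for *Fgg*, -1.13 for *Cpb2*, -1.12 for *Plg*, -1.12 for *F7*, -0.99 for *Proc*, -0.50 for *F10*, -1.42 for *F12*, 0.71 for *F5*, -1.33 for *Serpinc1* and -1.19 for *Serpind1*. *C1s1* was at -0.63 and *Masp1* at -0.83, and *Ahsg* (-0.12), *Kng1* (0.08) and *C4bp* (-0.30) again had no call. In bulk liver, fewer hepatocytes and less RNA per hepatocyte cannot be told apart. Of 6 hepatocyte markers 5 fell in BM at each day, among them *Alb*, the gene of albumin, with RPF changes of -1.11 ± 0.13 at day 4 and -1.63 ± 0.25 at day 10 (-1.67 ± 0.22 and again 5 of 6 without BM mouse 1). The sixth rose, *Serpina6* at day 4 (1.25 ± 0.11) and *Tat* at day 10 (1.95 ± 0.62, or 2.43 ± 0.19 without BM mouse 1), each of which fell on the other day. The summed RPF level of these 6 markers was 67203 to 77438 CPM in WT and 32946 to 40006 in BM at day 4, and 65996 to 85144 against 27011 to 34800 at day 10 (29312 and 34800 in BM mice 2 and 3), and the part of this in the members' change was not tested.

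**Figure D2:**
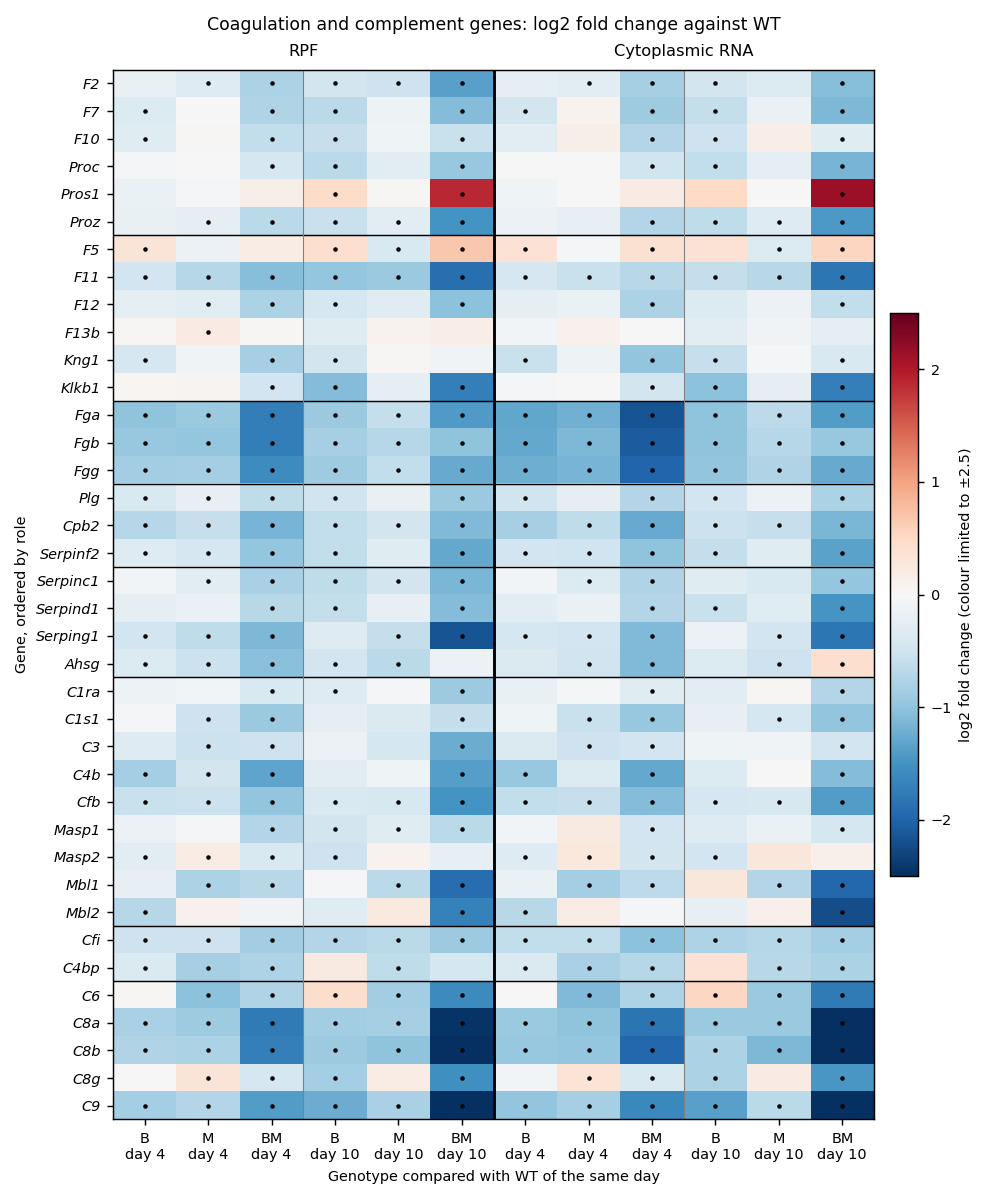
Log2 fold change against WT of the same day (colour, limited to ±2.5) for 38 genes in rows, ordered by role, and for B, M and BM at days 4 and 10 in columns, RPFs on the left and cytoplasmic RNA on the right. Blue is lower than WT; the columns of BM hold 34 and 31 genes called lower in RPFs at days 4 and 10, and *Pros1* is the deepest red at day 10. Values are relative to the trimmed mean of the genes (TMM), and with scaling to the library total *C1ra*, *Masp2* and *Mbl2* flip in BM RPFs of day 4, *F7*, *Masp1* and *Plg* in M RPFs of day 4, and others in RNA.

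Of the 6 vitamin K-dependent factors analysed, 5 fell in BM at both days, and protein S went the other way at day 10. *F2* encodes prothrombin and lies on chromosome 2 (91455662 to 91466807, minus strand, build GRCm39). Its RPF level at day 4 was 2790, 2710 and 2790 CPM in WT, 2611, 2438 and 2293 in B, 2191, 2024 and 2249 in M and 1393, 1828 and 1505 in BM. All 3 BM mice lay below all mice of the other genotypes, by -0.79 ± 0.11 against WT (adjusted p = 0.00017). At day 10 WT mice had 2717, 2636 and 2790 CPM, B 1944, 1996 and 2026, M 1956, 1821 and 1946, and BM 1658, 719 and 827. The groups of WT and BM again did not overlap, with a change of -1.36 ± 0.32 (adjusted p = 0.0136), or -1.82 ± 0.15 without BM mouse 1, whose level lay between those of the other BM mice and of M.

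*Pros1*, whose product protein S is the cofactor of the anticoagulant protein C, was the member with the largest increase. Its RPF level was 190, 177 and 194 CPM in WT, 164, 187 and 154 in B, 165, 181 and 186 in M and 188, 225 and 198 in BM at day 4, and these ranges overlapped. At day 10 it was 137, 194 and 168 in WT, 192, 240 and 256 in B, 164, 151 and 197 in M, and 399, 642 and 820 in BM. Every BM mouse lay above every other mouse, by 1.89 ± 0.28 against WT (adjusted p = 0.00247), and by 2.13 ± 0.17 without mouse 1. In RNA the 3 BM mice of day 10 had 177, 290 and 326 CPM and the WT mice 47.2, 77.1 and 54.0. B also rose in RPFs at day 10, by 0.45 ± 0.16 (adjusted p = 0.0829), and M gave 0.04 ± 0.15.

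The other vitamin K-dependent members also fell. *Proc*, which encodes protein C itself, fell by 0.43 ± 0.09 at day 4 and 0.94 ± 0.16 at day 10, so the genes of protein C and its cofactor moved in opposite directions at day 10. *F7*, the protease that starts coagulation with tissue factor, fell by 0.75 ± 0.09 and 1.09 ± 0.15. *Proz*, a cofactor for inhibiting factor Xa, fell by 0.68 ± 0.10 and 1.49 ± 0.25 (1.82 ± 0.13 without BM mouse 1). *F10*, the protease that cleaves prothrombin, fell by 0.62 ± 0.09 and 0.55 ± 0.16, and its RNA change at day 10, -0.30 ± 0.12, flips to 0.10 with scaling to the library total.

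Among the other coagulation factors, the contact-phase proteases fell in BM at both days, and *F5* and *F13b* did not fall in BM. *F11*, the gene of factor XI, had an RPF level of 220, 218 and 202 CPM in WT and 89.4, 109 and 103 in BM at day 4, with B at 137, 166 and 160 and M at 132, 119 and 131. By day 10 WT mice had 171, 180 and 214, B 98.3, 89.0 and 105, M 100.4, 89.4 and 109, and BM 37.3, 58.9 and 59.2. WT was highest and BM lowest without overlap at both days, by -1.06 ± 0.09 (adjusted p = 6.44e-06) and -1.88 ± 0.22 (adjusted p = 0.00102). *Klkb1*, plasma prekallikrein, changed by -0.49 ± 0.11 and -1.71 ± 0.23, and *F12*, which starts the contact phase, by -0.79 ± 0.09 and -1.02 ± 0.29. *Kng1*, kininogen, fell at day 4 (-0.83 ± 0.10) and stood at -0.09 ± 0.23 at day 10. *F5*, the cofactor that accelerates prothrombin cleavage, rose in B at both days (0.31 ± 0.10 and 0.43 ± 0.13) and in BM at day 10 (0.67 ± 0.19, adjusted p = 0.0251), and fell in M at day 10 (-0.38 ± 0.13). None of these calls of *F5* held without every mouse: in BM it was lost without WT mouse 1 (0.61 ± 0.24, adjusted p = 0.111), in B without any of 4 single mice at each day (0.24 to 0.32 at day 4 and 0.35 to 0.47 at day 10), and in M without any of the 6 (-0.43 to -0.29). *F13b*, the carrier subunit of the fibrin-crosslinking enzyme, gave 0.03 ± 0.10 and 0.16 ± 0.21, and without BM mouse 1 it was called higher, by 0.32.

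The 3 fibrinogen genes lie side by side on chromosome 3 (build GRCm39), *Fgg* at 82915030 to 82922363 and *Fga* at 82933383 to 82940934 on the plus strand and *Fgb* at 82947448 to 82957170 on the minus strand. All 3 fell in every mutant genotype at both days, in RPFs and in RNA. *Fga* had an RPF level of 15950, 12165 and 14376 CPM in WT at day 4, 8675, 6552 and 6110 in B, 7609, 6650 and 7602 in M and 3705, 4782 and 4156 in BM. The WT mice lay above all mutants, the BM mice below all others, and B and M overlapped. *Fgb* showed the same order, with 9761, 7773 and 9310 CPM in WT, 6018, 4241 and 3736 in B, 4493, 4140 and 4732 in M and 2392, 3030 and 2524 in BM. Against WT, BM changed by -1.72 ± 0.14 for *Fga* (adjusted p = 2.87e-06), -1.73 ± 0.13 for *Fgb* and -1.57 ± 0.13 for *Fgg*. In RNA the changes were -2.16 ± 0.19, -2.08 ± 0.18 and -1.98 ± 0.18.

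The WT mice of day 10 lay below those of day 4 for *Fga* and overlapped them for *Fgb*. At day 10 *Fga* was at 7793, 11179 and 10608 CPM in WT, 4394, 5509 and 5737 in B, 6957, 6796 and 5940 in M and 4318, 3637 and 3274 in BM. *Fgb* stood at 4989, 8427 and 7352 in WT, 3637, 4156 and 3998 in B, 4235, 4111 and 4350 in M and 3953, 3293 and 3179 in BM, so BM now overlapped B. BM still fell against WT, by 1.41 ± 0.23 for *Fga* (adjusted p = 0.0035), 1.01 ± 0.25 for *Fgb* (adjusted p = 0.0159) and 1.26 ± 0.23 for *Fgg*. Without BM mouse 1 the change of *Fga* was -1.52 ± 0.20.

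**Figure D3:**
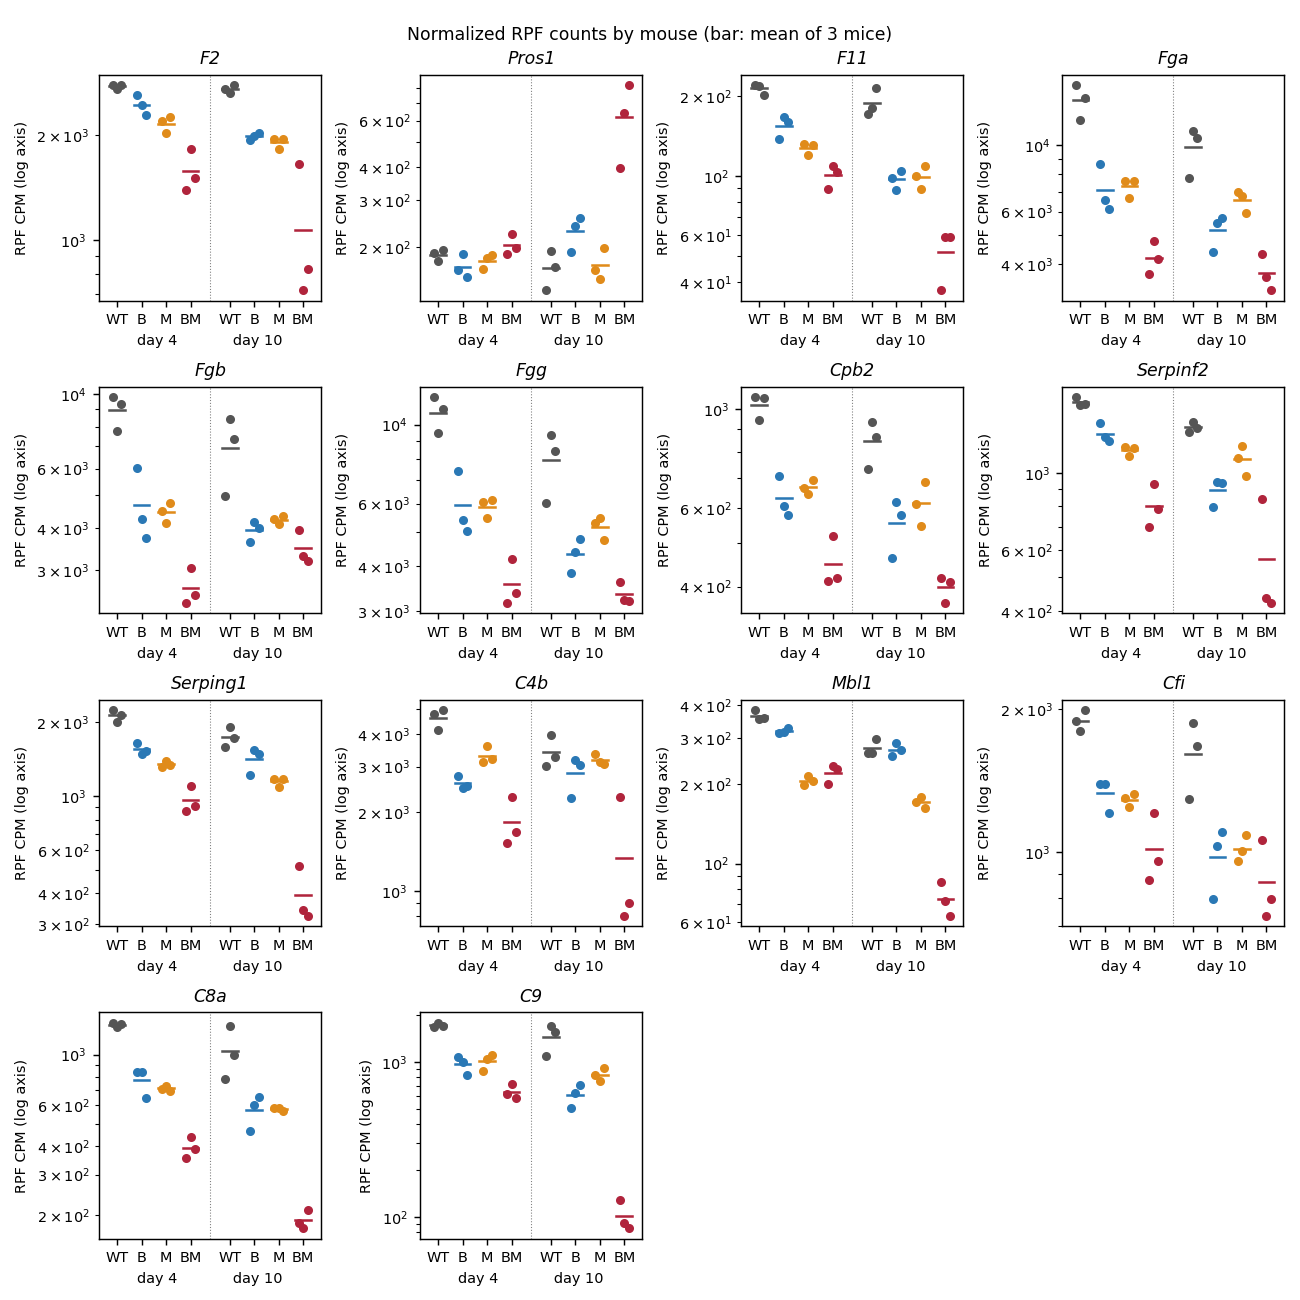
Normalised RPF counts (CPM, log axis) of 14 members, 1 point per mouse and a bar at the mean of 3 mice, by genotype and day. The BM mice of *F11*, *C8a* and *C9* lie below all other genotypes at both days, those of *Pros1* lie above them at day 10, and BM mouse 1 of day 10 stands above its 2 group mates for *F2*, *Serpinf2* and *C4b*.

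All 3 genes of fibrinolysis fell in BM at both days. *Cpb2*, whose product protects fibrin from plasmin, had an RPF level of 1061, 946 and 1060 CPM in WT, 707, 607 and 579 in B, 664, 644 and 693 in M and 411, 520 and 417 in BM at day 4. On day 10 the WT mice had 735, 935 and 867 and BM 419, 367 and 410, so the groups did not overlap at either day, with changes of -1.16 ± 0.11 and -1.10 ± 0.17. *Serpinf2*, the gene of the plasmin inhibitor α2-antiplasmin, had 1647, 1562 and 1579 in WT and 698, 930 and 787 in BM at day 4. At day 10 it had 1311, 1404 and 1349 in WT and 841, 435 and 422 in BM, again without overlap, and fell by 0.96 ± 0.11 and 1.27 ± 0.28 (1.67 ± 0.14 without BM mouse 1). *Plg*, the precursor of plasmin, changed by -0.64 ± 0.12 and -0.93 ± 0.22.

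Of the 4 inhibitors and carriers, *Serping1* moved most. It encodes the C1 inhibitor, which holds both the contact phase and the first complement proteases in check. Its RPF level was 2238, 2009 and 2138 CPM in WT, 1650, 1482 and 1525 in B, 1314, 1388 and 1336 in M and 868, 1097 and 909 in BM at day 4. WT mice of day 10 had 1588, 1905 and 1725, B 1215, 1539 and 1488, M 1176, 1086 and 1172, and BM 518, 343 and 325. BM was lowest at both days without overlap, by -1.13 ± 0.11 and -2.15 ± 0.23 (adjusted p = 0.00073). *Serpinc1*, antithrombin, changed by -0.82 ± 0.09 and -1.14 ± 0.20, and *Serpind1*, heparin cofactor II, by -0.69 ± 0.08 and -1.09 ± 0.17. *Ahsg* fell at day 4 by 1.04 ± 0.12 and gave -0.15 ± 0.20 at day 10 in RPFs. Its RNA rose at day 10, from 4954, 5434 and 5114 CPM in WT to 6184, 7069 and 7703 in BM, by 0.43 ± 0.17 (adjusted p = 0.0787).

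Among the genes of complement activation, 8 of 9 fell in BM RPFs at each day, all but *Mbl2* at day 4 and all but *Masp2* at day 10. *C4b*, the component that the classical and lectin pathways cleave after C1 or the MASPs, had an RPF level of 4794, 4161 and 4948 CPM in WT, 2767, 2488 and 2532 in B, 3112, 3601 and 3212 in M and 1525, 2298 and 1688 in BM at day 4. BM lay below every other genotype, by -1.31 ± 0.15 against WT. At day 10 WT had 3027, 3979 and 3276 and BM 2300, 802 and 900, a change of -1.38 ± 0.40 (adjusted p = 0.0306), or -2.02 ± 0.17 without mouse 1. Reads of *C4b* may be shared with its near-identical copy *C4a*, so its level is uncertain. *C3*, the component on which all pathways converge, showed the same split: WT had 13202, 15169 and 13835 CPM at day 10 and BM 11297, 3262 and 3472, with -1.24 ± 0.47 (adjusted p = 0.0731), or -2.07 ± 0.17 without mouse 1. Its call was lost without any other single mouse of the comparison (-1.30 to -0.95). *Cfb*, factor B of the alternative pathway, gave -0.99 ± 0.10 at day 4 and -1.50 ± 0.37 at day 10, or -2.08 ± 0.15 without mouse 1.

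Of the mannose-binding lectins, *Mbl1* fell in BM at both days and *Mbl2* at day 10. *Mbl1* had 383, 354 and 357 CPM in WT, 315, 316 and 327 in B, 198, 214 and 205 in M and 199.9, 235 and 229 in BM at day 4, so that M and BM overlapped below WT and B. WT mice of day 10 had 264, 262 and 296, B 255, 288 and 270, M 172, 178 and 163, and BM 85.1, 72.0 and 63.4. BM then lay below M, and B overlapped WT, with BM changes against WT of -0.69 ± 0.09 and -1.91 ± 0.17 (adjusted p = 0.000292). *Mbl2*, the other lectin, had no call in BM at day 4 and fell by 1.69 ± 0.16 at day 10. Of the lectin-associated proteases, *Masp1* changed by -0.73 ± 0.10 and -0.67 ± 0.18 and *Masp2* by -0.38 ± 0.09 and -0.20 ± 0.14, and at day 4 *Masp1* flips in RNA and *Masp2* in RPFs and RNA with scaling to the library total. *C1s1*, a protease of C1, changed by -0.93 ± 0.09 and -0.60 ± 0.15 and its partner *C1ra* by -0.37 ± 0.08 (0.053 with that scaling) and -0.91 ± 0.18.

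Both genes of complement control fell at day 4. *Cfi*, the protease that inactivates C3b and C4b, had an RPF level of 1886, 1800 and 1990 CPM in WT, 1393, 1388 and 1209 in B, 1300, 1243 and 1324 in M and 874, 1206 and 960 in BM. By day 10 WT mice had 1294, 1867 and 1672, B 797, 1032 and 1104, M 955, 1003 and 1084, and BM 1058, 735 and 797. The 3 mutant genotypes overlapped one another at day 10 and all lay below WT, with BM at -0.88 ± 0.12 and -0.91 ± 0.22. *C4bp*, a cofactor of *Cfi*, fell by 0.77 ± 0.09 at day 4 and had no RPF call at day 10 (-0.44 ± 0.20), where its RNA fell by 0.79 ± 0.17.

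All 5 terminal complement genes fell at both days, with a median of -1.40 at day 4 and -2.46 at day 10, and *C9*, *C8b* and *C8a* held the 3 largest decreases of the set at day 10. *C8a* (chromosome 4, 104672876 to 104733614, minus strand, GRCm39), which encodes the α chain of C8, had an RPF level of 1377, 1316 and 1364 CPM in WT, 838, 838 and 649 in B, 710, 733 and 695 in M and 354, 436 and 388 in BM at day 4. At day 10 WT had 786, 1327 and 992, B 465, 603 and 656, M 587, 585 and 566, and BM 185, 175 and 210. BM lay below all other mice on both days, by -1.76 ± 0.10 (adjusted p = 2.64e-07) and -2.46 ± 0.23. *C8b*, the β chain, changed by -1.71 ± 0.08 and -3.09 ± 0.19, and *C8g*, the γ chain, by -0.42 ± 0.09 and -1.54 ± 0.34 (-2.04 ± 0.17 without BM mouse 1). The γ chain of day 4 RNA flips with scaling to the library total.

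*C9* (chromosome 15, 6474795 to 6547009, plus strand, GRCm39), whose product polymerises into the pore, fell further than any other member at day 10. WT mice had 1671, 1781 and 1708 CPM in RPFs at day 4, B 1071, 991 and 826, M 876, 1044 and 1108 and BM 620, 717 and 580. At day 10 WT had 1094, 1699.7 and 1552, B 507, 628 and 709, M 817, 750.5 and 915, and BM 128, 92.1 and 84.9. The BM mice of day 10 lay below every other mouse of the study, by -3.84 ± 0.26 (adjusted p = 0.000117) against WT and -4.04 ± 0.22 without mouse 1. Its RNA had gone the same way, from 841, 1146 and 1108 CPM in WT to 72.3, 70.6 and 61.0 in BM. *C6*, which joins the complex before C8, fell in M at both days (-1.02 ± 0.08 and -0.87 ± 0.16) and in BM (-0.76 ± 0.10 and -1.59 ± 0.20), and rose in B at day 10 (0.43 ± 0.16, adjusted p = 0.099).

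With either allele alone, part of the set fell. The comparisons of B, M and BM with WT on a day share the 3 WT mice, so their counts are not independent. In B at day 4, 21 genes fell and 1 rose in RPFs (median -0.32), where 6.26% of all genes fell and 6.21% rose. In RNA 19 fell and 1 rose (median -0.36, backgrounds 3.73% and 4.41%). With scaling to the library total 15 fell and 1 rose in RPFs (median -0.21), beside 420 and 1263 of all 11058 genes. In RNA 12 fell and 1 rose (median -0.16), beside 228 and 1588 of all 10993. At day 10 the counts in B were 27 and 3 in RPFs (median -0.51, backgrounds 12.1% and 13.1%) and 22 and 1 in RNA (median -0.48, backgrounds 7.48% and 8.14%). The RNA count was 12 lower without WT mouse 3, a fit whose share of all genes is not given here. With scaling to the library total 18 fell and 4 rose in RPFs of B at day 10, beside 586 and 3886 of all 11454 genes. In its RNA 10 fell and 5 rose, beside 426 and 2218 of all 11296. In M at day 4, 24 fell and 3 rose in RPFs (median -0.38, backgrounds 14.7% and 18.5%) and 20 fell and 2 rose in RNA (median -0.33, backgrounds 10.3% and 13.5%). Those of M depend on the scaling: to the library total, 19 fell and 9 rose in RPFs, beside 681 and 4243 of all 11115 genes. In RNA 13 fell and 13 rose, with a median of 0.02. Of all 11173 genes, 290 fell and 5665 rose there, with a median of 0.36.

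At day 10, 20 genes fell in M RPFs and none rose (median -0.37, backgrounds 8.80% and 10.6%), and 18 fell in M RNA and none rose (median -0.33, backgrounds 7.12% and 8.53%). Without M mouse 1 these counts were 8 and 9, in fits whose share of all genes is not given here. With scaling to the library total 11 fell and 4 rose in RPFs, beside 378 and 3442 of all 11300 genes. In RNA 11 fell and 3 rose, beside 316 and 1880 of all 11143. The 3 fibrinogen genes were among the 12 that lost their RPF call without 1 mouse. B and M were not tested against each other, and their values against WT are given side by side. *F7* fell in B at day 4 (-0.34 ± 0.09) and had -0.02 ± 0.07 in M (0.19 with scaling to the library total), and *Mbl2* fell in B (-0.72 ± 0.10) and had 0.11 ± 0.09 in M. *C6* had 0.02 ± 0.09 in B and -1.02 ± 0.08 in M, and *Mbl1* -0.21 ± 0.08 in B and -0.79 ± 0.07 in M.

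At day 4 most members were lower in BM than in either single mutant. Against M at day 4, 31 genes fell in BM RPFs and 2 rose, *F5* and *C6* (median -0.53, backgrounds 19.3% and 18.8%). Against B at day 4, 31 fell and 2 rose, *Pros1* and *Mbl2* (median -0.48, backgrounds 21.5% and 23.2%). With scaling to the library total 18 fell and 4 rose, beside 812 and 5630 of all 11373 genes, and *C1ra* (0.069) and *Masp2* (0.21) flip. *C8a* and *C8b* fell in both comparisons, *C8a* by 0.87 ± 0.09 against M and 0.94 ± 0.13 against B, and *C8b* by 0.92 ± 0.07 and 0.96 ± 0.12. Fibrinogen also fell below either allele, *Fga* by 0.81 ± 0.12 against M and 0.72 ± 0.16 against B.

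At day 10, 26 genes fell against M and 3 rose (median -0.78, backgrounds 16.7% and 16%), and 19 fell against B and 2 rose (median -0.53, backgrounds 17.7% and 18.8%). The count against B was 10 lower and 4 higher with scaling to the library total, beside 1465 and 2800 of all 11605 genes. Single mice weighed on these counts. Without BM mouse 1 they were 31 lower and 5 higher against M (backgrounds 28.6% and 30.5%), and 28 lower and 6 higher against B (30.7% and 30.3%). The count against M was 14 lower without M mouse 1, and the count against B was 8 lower without B mouse 2 and without BM mouse 2. The shares of all genes in these fits are not given here, so these counts have no background beside them. *C9* fell by 3.04 ± 0.21 against M and 2.58 ± 0.22 against B, *C6* by 0.72 ± 0.15 and 2.00 ± 0.17, and *Serping1* by 1.56 ± 0.21 and 1.83 ± 0.23, while none of the 3 fibrinogen genes had a call against B (*Fga* -0.47 ± 0.19, adjusted p = 0.115). Without BM mouse 1, *Fga* (-0.56 ± 0.15, adjusted p = 0.0148) and *Fgg* (-0.40 ± 0.13, adjusted p = 0.0342) were called lower than in B, and *Fgb* (-0.25 ± 0.12) was not.

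Whether the effect of BM differed between the days was tested as the interaction of genotype and day over the 12 WT and BM mice. In RPFs 13 members had a lower effect at day 10 than at day 4 and 5 a higher one, against 18.6% and 17.2% of all genes, and in RNA 13 and 6, against 16.6% and 13.4%. Without BM mouse 1 the RPF counts were 23 and 6 (31.5% and 25.8% of all genes) and the RNA counts 18 and 6 (23.8% and 19.7%). All 5 terminal genes went further down, *C9* by a difference of -2.43 ± 0.27 (adjusted p = 0.000113), *C8b* by -1.37 ± 0.18 and *C8a* by -0.69 ± 0.24. The call of *C8a* was lost without WT mouse 2 of day 10 (-0.47), WT mouse 2 of day 4 (-0.67) or BM mouse 2 of day 4 (-0.63), and that of *C8g* without WT mouse 1 of day 10 (-1.0). The mannose-binding lectins did so as well, with -1.21 ± 0.18 for *Mbl1* and -1.58 ± 0.18 for *Mbl2*. The effect moved up for *Pros1* (1.75 ± 0.31), *Ahsg* (0.89 ± 0.22), *Kng1* (0.75 ± 0.24), *Fgb* (0.73 ± 0.28, adjusted p = 0.0682) and *F5* (0.50 ± 0.20), and no difference was called for *Fga* (0.32 ± 0.26) or *Fgg* (0.32 ± 0.26).

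**Figure D4:**
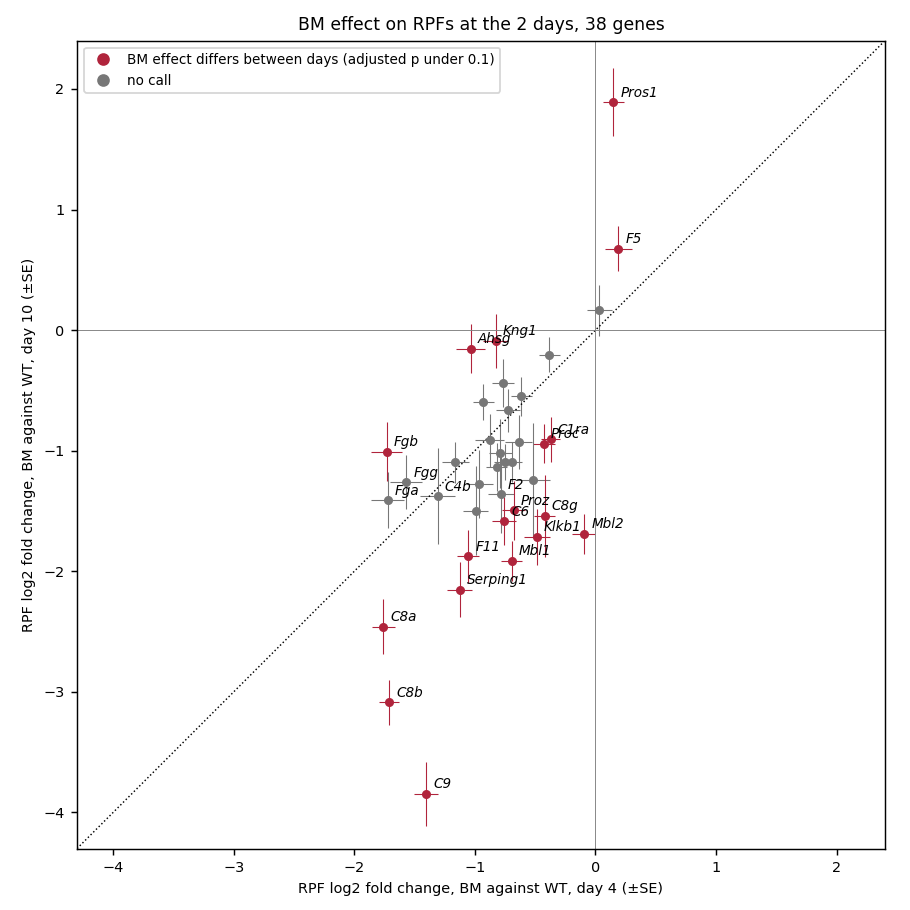
RPF log2 fold change of BM against WT at day 4 (x axis) and day 10 (y axis), ± SE, 1 point per gene for 38 genes, with the dotted line marking equal effects. Red points are the 18 genes whose effect differed between the days; *C9* lies lowest at -1.40 and -3.84, *Pros1* highest at 0.15 and 1.89, and *C1ra*, *Masp2* and *Mbl2* change sign on the x axis with scaling to the library total.

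Translation efficiency (TE), the RPF change beyond the RNA change, was called for no member in any of the 6 genotype comparisons with edgeR's interaction test or with DESeq2. At an unadjusted p under 0.05 there were 3 calls, *F11* in BM at day 4, *Masp1* in M at day 4 and *Ahsg* in BM at day 10, where 10.1%, 7.28% and 9.99% of all genes passed that cut-off, and DESeq2 gave 5. At the adjusted threshold 2.23% of all genes were called in BM at day 4, 0.971% in M at day 4, 0.0488% in B at day 4, and at day 10 0.0564% in B, 0.00% in M and 0.259% in BM. RPF and RNA libraries of 1 mouse are paired, and with the mouse as a block 6.17% of all genes were called in BM at day 4, among them 4 members. *Fga* rose in TE by 0.42 ± 0.09 (adjusted p = 0.00614), *Fgg* by 0.37 ± 0.10 (adjusted p = 0.0278) and *Fgb* by 0.32 ± 0.10 (adjusted p = 0.0596), and *F11* fell by 0.38 ± 0.11 (adjusted p = 0.0398). The log2 TE of *Fga* was 0.36, 0.68 and 0.59 in WT and 1.03, 0.85 and 0.96 in BM, without overlap, so its RPFs had fallen less than its RNA. In B and M no member was called with the block, against 0.274% of all genes in B and 2.65% in M at day 4 and 2.60% and 0.325% at day 10. For BM at day 10, with the block, *Ahsg* alone was called among the members (-0.60 ± 0.16, adjusted p = 0.0834, 5.21% of all genes).

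TE at day 10 turned on BM mouse 1. Without it 10 of 38 members were called, 5 in each direction, and 21.5% of all genes. The share of members called was thus near that of all genes, and the values below describe single genes. *C3* fell by 1.49 and *C4b* by 0.84, and *F12*, *Ahsg* and *F2* also fell. *Mbl2* rose by 0.93, as did *C4bp*, *C1s1*, *Serpind1* and *Mbl1* by lesser amounts. The log2 TE of *C3* was 0.37, 0.57 and 0.61 in WT and 0.44, -1.07 and -0.84 in BM, so that mouse 1 lay within the WT range and the other 2 far below it. For *Mbl2* the values were 0.49, 0.80 and 0.83 in WT and 0.74, 1.57 and 1.77 in BM, again with mouse 1 inside the WT range. RNA levels of *C3* did not split the mice in this way, at 8340, 6864 and 6203 CPM.

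**Figure D5:**
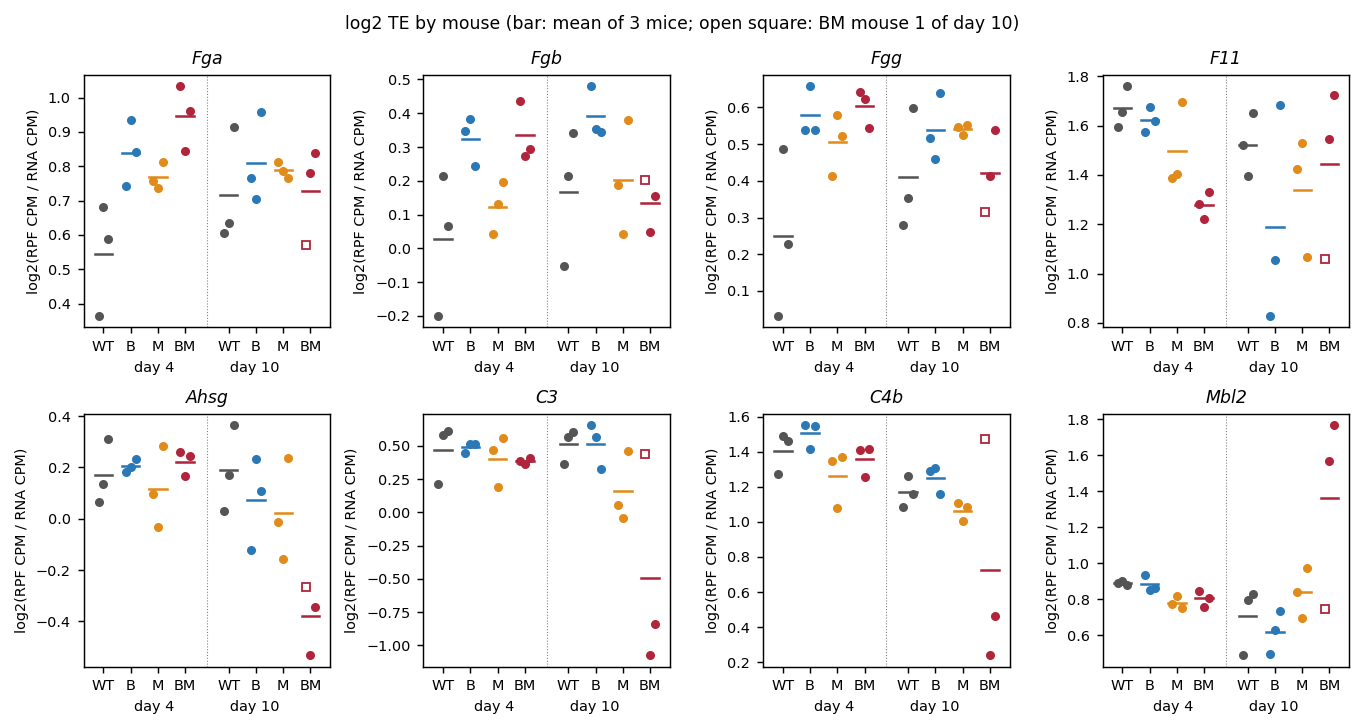
Log2 TE (y axis) of 8 genes, 1 point per mouse and a bar at the mean of 3 mice, by genotype and day. The 3 BM mice of day 4 lie above WT for *Fga* (0.85 to 1.03 against 0.36 to 0.68) and below it for *F11*; the open square, BM mouse 1 of day 10, lies apart from its 2 group mates for *C3*, *C4b* and *Mbl2*.

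Other genes of the pathways that make liver plasma proteins were read from lists outside the set. Of 11 further complement genes tested in RPFs, 11 fell in BM at day 4 and none rose, and 8 fell and 1 rose at day 10, or 9 and 1 without BM mouse 1. Of all genes, 24.7% fell and 26.2% rose at day 4, and 22.3% fell and 24.5% rose at day 10 (32.9% and 33.4% without that mouse). *C2*, the protease partner of C4, fell by 1.14 ± 0.09 and 1.73 ± 0.31 (2.18 ± 0.14 without mouse 1), and *Hc*, the gene of C5, by 1.19 ± 0.10 and 1.39 ± 0.25 (1.56 ± 0.21 without it). Of 10 further coagulation and fibrinolysis genes, 8 fell and 1 rose at day 4, and 5 fell and 2 rose at day 10 (6 and 2 without mouse 1), and the share that rose was at neither day above that of all genes. *Serpina10*, whose product inhibits factor Xa with *Proz*, fell by 1.43 ± 0.16 and 1.48 ± 0.23 (1.73 ± 0.15 without mouse 1). *Hrg*, a plasma protein that binds heparin and plasminogen, fell at day 4 (-0.87 ± 0.12) and rose at day 10 (0.47 ± 0.19, or 0.56 ± 0.15 without mouse 1). *Ggcx*, the carboxylase on which *F2*, *F7*, *F10*, *Proc*, *Pros1* and *Proz* depend, fell in RPFs by 0.69 ± 0.11 at day 4 and 2.61 ± 0.35 at day 10 (3.13 ± 0.14 without mouse 1).

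Markers of the other liver cells were read beside these results. The summed RPF level of 6 Kupffer cell markers was 625 to 719 CPM in WT and 359 to 379 in BM at day 4, and 501 to 696 against 804 to 850 at day 10, with 5 of 6 lower at day 4 and 2 of 6 higher at day 10 (4 of 6 higher and 1 lower, *Timd4* at -0.79 ± 0.29, without BM mouse 1), where 24.7% of all genes fell at day 4 and 24.5% rose at day 10 (33.4% rose and 32.9% fell without that mouse). Liver endothelial markers summed to 698 to 780 CPM in WT and 551 to 616 in BM at day 4, and 691 to 833 against 561 to 754 at day 10. Stellate cell markers gave 708 to 787 against 460 to 584, and 760 to 917 against 699 to 736. Cholangiocyte markers gave 85.7 to 133 CPM against 36.1 to 53.9, and 43.5 to 84.3 against 35.7 to 63.3. Blood cell markers gave 34.4 to 48.5 against 17.6 to 22.2, and 27.8 to 49.1 against 52.9 to 54.8. Platelet markers gave 3.86 to 4.86 CPM in WT against 2.38 to 3.41 in BM at day 4, and 4.50 to 5.65 against 5.11 to 9.09 at day 10, where *Gp1bb* had no RPF row and was left out of the sum and *Gp9* was at 0 in BM at day 4 and in WT at day 10. Markers of β-catenin activity rose in 5 of 5 at day 4 and in 3 of 5 at day 10, among them *Glul* by 2.27 ± 0.10 and 1.77 ± 0.33 (1.48 ± 0.24 without BM mouse 1). The other 2 at day 10 were *Notum* (0.32 ± 0.56) and *Nkd1* (1.05 ± 0.92). Without BM mouse 1 *Notum* was called lower (-0.73 ± 0.23, adjusted p = 0.017) and *Nkd1* stood at -1.01 ± 0.53. The part of these cells in the members' levels was not tested.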

How the data were processed

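Liver RPF and cytoplasmic RNA libraries of 24 mice (48 libraries) were analysed, grouped by genotype and day from the labels. Per the authors, RPF reads passed Cutadapt (1.18), filters against rRNA and tRNA, BBmap alignment to 1 transcript per gene (GENCODE vM27) and UMI deduplication, and the deposited counts cover the coding region after 20 codons at its start and 10 at its end were dropped. For RNA the authors deposited expected counts and TPM per isoform from RSEM (1.3.3) with Bowtie2 (2.3.5.1), and SAMtools (1.9) is also named in the submitters' processing notes. Deposited TPM served only for levels per length. Because RPFs were counted on 1 transcript per gene and RNA over all isoforms, TE of genes whose isoforms shift mixes both.

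Expected counts were summed per gene and rounded. Each comparison was fitted with edgeR (4.0.16, limma 3.58.1, R 4.3.3) on its own mice with TMM factors, filterByExpr (minimum count 10, minimum total 15), the quasi-likelihood F test and Benjamini-Hochberg adjustment over all genes tested, with calls at 0.1. TE was the interaction of genotype and library type. The RPF and RNA library of 1 mouse come from 1 animal, and their deviations from the group means correlated at 0.197 to 0.620 over genes, so TE was also fitted with the mouse as a block. The scripts were tested on simulated data. Alternatives were DESeq2 (1.42.0), RLE factors, no filter, a replicate block, RNA of the single RPF transcript and leaving out each mouse; scaling to the library total was added after the data were seen. The mice of a group were separate animals.

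Members, roles, lists and markers were chosen with earlier results of these data known. The genes described mouse by mouse were the largest RPF change of BM against WT in each role at each day, with *Fgg* added to complete the trio and *C3*, *Ahsg* and *Mbl2* named for their split in TE or between days, after their values were seen. A regulator on the list and its motif are not reported here. Promoters came from RefSeq (GRCm38.p6) and gene positions from GENCODE vM39 (GRCm39).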

Additional observations from a re-analysis of the deposited data

Results flagged for a closer look

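The effect of BM against WT differed between day 10 and day 4, by the interaction test of edgeR, in 18 members in RPFs and 19 in RNA. Each value here is the log2 change at day 10 minus that at day 4. In RPFs the difference was negative for *C9* (-2.43), *Mbl2* (-1.58), *C8b* (-1.37), *Klkb1* (-1.21), *Mbl1* (-1.21), *C8g* (-1.10), *Serping1* (-1.01), *C6* (-0.82), *F11* (-0.81), *Proz* (-0.80), *C8a* (-0.69), *C1ra* (-0.52) and *Proc* (-0.50). It was positive for *Pros1* (1.75), *Ahsg* (0.89), *Kng1* (0.75), *Fgb* (0.73) and *F5* (0.50).

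In RNA the difference was negative for *C9* (-2.32), *Mbl2* (-2.19), *Mbl1* (-1.31), *C8b* (-1.25), *Klkb1* (-1.25), *F11* (-1.13), *C8g* (-1.08), *C8a* (-1.05), *C6* (-1.0), *Serpind1* (-0.74), *Serping1* (-0.71), *Proc* (-0.67) and *C1ra* (-0.43). It was positive for *Pros1* (1.92), *Ahsg* (1.53), *Fgb* (1.13), *Kng1* (0.61), *Masp2* (0.57) and *F10* (0.42). The change of *Masp2* RNA at day 10, 0.12 over all isoforms, was -0.48 for the transcript counted in RPFs, which carried 17.9 to 19.1% of the gene's RNA in BM at day 10 and 24.9 to 34.5% in the other groups.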

How the results depend on the processing

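With scaling to the library total, added after the data were seen, members higher numbered 9 in RPFs and 13 in RNA of M at day 4, 4 in RPFs and 5 in RNA of BM at day 4, 5 in RNA of B at day 10, 4 in RPFs and 3 in RNA of M at day 10, and 5 (BM against M, day 4), 4 (BM against B, day 4) and 4 (BM against B, day 10). Members lower numbered 12 in RNA of B at day 4, 13 in RNA of M at day 4, 20 in RNA of BM at day 4, 10 in RNA of B at day 10, 11 in RPFs and 11 in RNA of M at day 10, 18 (BM against B, day 4) and 10 (BM against B, day 10). For BM against M at day 4, 1065 of all 11411 genes fell and 4445 rose. The other comparisons have their counts of all genes above, beside the same scaling. With it the log2 change turned positive for *F7* (0.19), *Masp1* (0.17) and *Plg* (0.017) in RPFs of M at day 4, and in its RNA for *C1ra* (0.34), *F12* (0.19), *F2* (0.085), *F5* (0.31), *Klkb1* (0.35), *Proc* (0.34), *Pros1* (0.34) and *Serpinc1* (0.020). In BM at day 4 it did so for *C1ra* (0.053), *Masp2* (0.041) and *Mbl2* (0.33) in RPFs, and for *C1ra* (0.24), *C3* (0.072), *C8g* (0.17), *F13b* (0.54), *Klkb1* (0.094), *Masp1* (0.068), *Masp2* (0.096), *Mbl2* (0.52) and *Proc* (0.047) in RNA. At day 10 *F10* (0.10) and *Kng1* (0.024) turned in RNA of BM, and at day 4 *Mbl2* (0.0091) against M and *C1ra* (0.069) and *Masp2* (0.21) against B. *Masp2* RNA of BM at day 10 reversed on the single transcript (-0.48). DESeq2 gave 1 higher member in RPFs and 1 in RNA of M at day 4 and 2 in RNA of B at day 10, RLE factors 1 in RPFs of M at day 4, and no filter on low counts 1 there, 2 in RNA of B at day 10 and 1 in BM against B at day 10.

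Replicate numbers did not pair the mice across genotypes (correlations -0.19 to 0.24). With the replicate block 0 members were higher in RNA of B at day 4, 2 in RNA of B at day 10, 0 in BM against M at day 4 and 1 in BM against B at day 10, and 10 were lower in RPFs and 10 in RNA of M at day 10. With the mouse as a replicate block in TE, 3 members were higher and 1 lower in BM at day 4 and 1 lower at day 10, and no other TE call changed.

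Leaving out 1 mouse at a time gave, in members, 15 to 23 lower and 0 to 1 higher (RPF, B, day 4), 14 to 19 lower and 0 to 1 higher (RNA, B, day 4), 22 to 24 lower and 0 to 3 higher (RPF, M, day 4), 17 to 22 lower and 0 to 3 higher (RNA, M, day 4), 34 to 34 lower and 0 to 2 higher (RPF, BM, day 4), 32 to 34 lower and 1 to 2 higher (RNA, BM, day 4), 20 to 26 lower and 0 to 2 higher (RPF, B, day 10), 12 to 21 lower and 0 to 2 higher (RNA, B, day 10), 8 to 20 lower and 0 to 0 higher (RPF, M, day 10). It gave 9 to 16 lower and 0 to 0 higher (RNA, M, day 10), 29 to 32 lower and 1 to 3 higher (RPF, BM, day 10), 29 to 33 lower and 2 to 3 higher (RNA, BM, day 10), 0 to 5 lower and 0 to 5 higher (TE, BM, day 10), 29 to 32 lower and 0 to 2 higher (RPF, BM against M, day 4), 27 to 32 lower and 1 to 2 higher (RPF, BM against B, day 4), 14 to 31 lower and 2 to 5 higher (RPF, BM against M, day 10), 8 to 28 lower and 1 to 6 higher (RPF, BM against B, day 10), 9 to 23 lower and 3 to 6 higher (RPF, the day difference), 10 to 18 lower and 5 to 8 higher (RNA, the day difference). Of these fits, the shares of all genes are given only for those without BM mouse 1 of day 10. No member called with all mice changed direction without any 1 mouse. The calls lost without at least 1 mouse were, in RPFs against WT at day 4, 9 of 22 in B, 5 of 27 in M and 0 of 34 in BM, and at day 10, 11 of 30, 12 of 20 and 3 of 33 (*C3*, *F10* and *F5*). They were 4 of 33 (BM against M, day 4), 5 of 33 (BM against B, day 4), 13 of 29 (BM against M, day 10), 12 of 21 (BM against B, day 10) and 7 of 18 (the day difference: *C1ra*, *C8a*, *C8g*, *F5*, *Fgb*, *Proc* and *Proz*). In RNA they were 7 of 20, 5 of 22 and 2 of 35 at day 4, 11 of 23, 9 of 18 and 5 of 36 at day 10, and 4 of 19 for the day difference. Calls lost in RPFs of B included *C6* and *Pros1* at day 10 and *F7* at day 4. All members were counted in every RPF library, the RNA libraries of BM at day 10 were the shallowest, and no fit at equal depth was run. With 3 mice a group the precision of each change is limited.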

Other observations

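In BM the regulators of liver plasma protein genes were read in RPFs as well. Of 16 transcription factors and cytokine signalling genes, 9 fell and 2 rose at day 4, where 24.7% of all genes fell and 26.2% rose. At day 10, 6 fell and 5 rose (22.3% and 24.5% of all genes), or 6 and 8 without BM mouse 1 (32.9% and 33.4%), so the share that rose at day 10 with all mice was near that of all genes. The acute-phase regulators *Stat3* (-1.53 ± 0.14), *Cebpb* (-1.41 ± 0.12), *Cebpd* (-1.44 ± 0.34) and the IL-6 receptor gene *Il6ra* (-1.18 ± 0.12) fell at day 4. At day 10 *Cebpd* rose by 2.15 ± 0.35 and *Il6ra* by 1.21 ± 0.29 (2.44 ± 0.21 and 1.44 ± 0.20 without BM mouse 1), while *Stat3* stood at -0.11 ± 0.25 and *Cebpb* at 0.23 ± 0.20 (-0.15 and 0.32, again with no call). Without that mouse *Il6st*, another cytokine signalling gene of the list, was called lower (-0.83 ± 0.14), and *Il1r1* (1.35 ± 0.12) and *Socs3* (1.17 ± 0.47) were called higher. *Cebpa*, the C/EBP factor of resting hepatocytes, fell at both days, by 0.68 ± 0.08 and 1.47 ± 0.19 (1.61 ± 0.16 without BM mouse 1). *Onecut1*, another hepatocyte factor, had 0.73 ± 0.45 at day 4 and fell by 3.0 ± 0.28 at day 10 (-2.83 ± 0.24 without that mouse). *Hnf4a* fell at day 4 (-0.42 ± 0.07) and stood at 0.17 ± 0.21 at day 10, where it was called higher without BM mouse 1 (0.35 ± 0.13, adjusted p = 0.0357). The same list held 2 genes of acute-phase proteins, *Crp* and *Saa4*, which both fell at both days, *Crp* by 1.08 ± 0.09 and 1.46 ± 0.20 (1.31 ± 0.14). The difference between the days was called for *Stat3* (1.42 ± 0.32), *Cebpb* (1.65 ± 0.25), *Cebpd* (3.59 ± 0.56), *Il6ra* (2.4 ± 0.33), *Cebpa* (-0.78 ± 0.21), *Onecut1* (-3.72 ± 0.65) and *Hnf4a* (0.60 ± 0.21, adjusted p = 0.0569) and not for *Crp* (-0.37 ± 0.21).

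Of 13 vessel wall and cell surface genes of the pathways, 7 fell and 1 rose in BM RPFs at day 4, and 3 fell and 5 rose at day 10, or 3 and 7 without BM mouse 1, beside the same shares of all genes; the 3 that fell at day 10 are a share near that of all genes. Among the lists outside the set, *A2m* fell by 1.23 ± 0.18 and 2.12 ± 0.34 (2.57 ± 0.27 without BM mouse 1) and *Plat*, the gene of tissue plasminogen activator, fell by 1.09 ± 0.33 at day 4 and rose by 2.45 ± 0.62 at day 10 (1.42 ± 0.27). In the vitamin K cycle 1 of 3 genes fell at day 4, where 24.7% of all genes fell, and 2 of 3 at day 10 (22.3%), or 3 of 3 without BM mouse 1 (32.9%).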
